A study of Kluyveromyces lactis with 17 samples.

Results

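In the yeast Kluyveromyces lactis, 49 genes had less RNA after 4 h at 15 µg/L nicotinic acid than at 400 µg/L, both in a wild-type strain and in a strain lacking SIR2, and they are described here as a set. They are 49 of the 5302 genes in the deposited normalized table. The members were selected on the 15 and 400 µg/L libraries: a gene was kept when its log2 level, taken as the group mean plus a pseudocount of 10, was lower at 15 than at 400 µg/L by at least 0.35 in each strain. Genes for structural RNAs, genes among the 30 nearest each chromosome end, GAL1, GAL7 and GAL10, PCK1, GPM1, TPI1, FBA1 and genes with ribosomal protein or respiratory chain symbols were dropped. The differences between 15 and 400 µg/L are therefore a description with no test, and the tests below use the libraries at 45 and 135 µg/L, which did not enter the selection.

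The wild type (WT) was LRY2992, genotype MATa SIR2 hmlΔ hmrΔ, and the mutant was LRY2993, genotype MATα sir2Δ hmlΔ hmrΔ. Both thus lack the silent mating-type loci, and they differ in mating type as well as in SIR2, so the effects of these 2 differences cannot be told apart in any comparison of strains. Each genotype was 1 strain. Cultures grew overnight in minimal medium with glucose, ammonium sulfate and 400 µg/L nicotinic acid, and were then diluted into medium with 15, 45, 135 or 400 µg/L for 4 h. Poly(A) RNA of 17 libraries was sequenced, 2 libraries for each of the 8 groups except WT at 400 µg/L, which had 3, numbered 1, 1R and 2. The titles carry the mark RESUB on WT libraries 1 and 1R and on sir2Δ library 8 at 15 µg/L without explaining it, and by its number 1R may be a repeat of 1. Libraries 1R and 8 entered the selection.

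Nicotinic acid is a precursor of NAD+, the cofactor that carries electrons in central metabolism and that is consumed by sirtuin deacetylases such as Sir2. K. lactis lacks the route that makes NAD+ from tryptophan and depends on precursors from the medium. Gluconeogenesis builds sugar from smaller carbon compounds, sterol synthesis uses oxygen and reduced cofactor at several steps, and most mitochondrial proteins are made in the cytosol and imported. Roles given below are those known in Saccharomyces cerevisiae, where the genes are best studied, and apply to the 30 members with a symbol. The other 19 members carry only an identifier and are given no role.

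Library totals ranged from 24663143 to 38246270 reads. SIR2 (KLLA0_F14663g) lay at 138 to 147 CPM (reads scaled to a common library total) in the WT libraries and at 0.688 to 2.64 CPM in the sir2Δ libraries, and HMLALPHA1, a gene of the α mating type, at 0.249 to 1.55 CPM and at 72.1 to 79.9 CPM. The first goes with the SIR2 genotype and the second with the mating type in the strain labels. HMLALPHA1 is named for the HML locus, which the labels give as deleted in both strains. Which locus gave the reads under its identifier was not tested. Library 1 of WT at 400 µg/L stood apart from its group, with a correlation of log2 CPM of 0.960 with library 1R and 0.965 with library 2, against 0.992 to 0.998 within the other groups and between 1R and 2. Set against 1R and 2, it had more of short transcripts and less of long ones: the median log2 difference was 0.60 in the shortest of 5 classes of coding length and -0.40 in the longest. The selection left it out, and so did the fit. With all 3 libraries in the WT 400 µg/L mean, the same rule kept 94 genes, 41 of them among the 49, and with libraries 1 and 1R averaged first it kept 81, with 42 among the 49.

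The rule's threshold was met by 7.54% of all genes in WT, by 6.94% in sir2Δ and by 1.32%, or 70 genes, in both. Of these 70, the named exclusions removed 21: 8 RNA genes, 9 genes near chromosome ends, 3 galactose genes and 1 gene by its symbol. The members just inside the threshold were ERG1, with -0.60 in WT and -0.35 in sir2Δ, KLLA0_E01321g, with -0.35 and -0.65, and KLLA0_F13981g, with -0.35 and -1.01. Just outside it lay DAL5, with -0.35 and -0.58, ERG11, with -0.35 and -0.35, and STE50, with -0.57 and -0.35. A threshold of -0.50 would have kept 10 genes and -0.25 would have kept 126.

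Of the 49 members, 48 passed the filter on low counts. The exception, KLLA0_C18711g, had 0 to 6 reads in any library and is given no further value. KLLA0_F13981g passed with 2 to 37 reads per library, and its values rest on those few reads.

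Between the doses that the selection did not use, the members fell together when the strains were averaged. From 135 to 45 µg/L, averaged over both strains, 32 of 48 members were called lower and 0 were called higher (edgeR's quasi-likelihood test, Benjamini-Hochberg adjusted p under 0.05 over all 5222 genes tested), where 2.85% of all genes were called lower and 5.55% higher. At an unadjusted p under 0.05 the members lower numbered 40 and the members higher again 0, but the share of all genes at that threshold was not computed. DESeq2 called 35 lower and 0 higher, against 3.81% and 8.41% of all genes. All 48 fitted log2 fold changes lay below 0, from -1.15 to -0.06 with a median of -0.29, against a median of 0.01 over all genes, of which 47.2% lay below 0. Among the members not called, KLLA0_F13981g, KLLA0_E16259g, MER1 and NAT5 turned to values of up to 0.08, 0.06, 0.0057 and 0.03 when single 45 or 135 µg/L libraries were left out. Library by library, in 33 of 48 members every 45 µg/L library lay below every 135 µg/L library of its strain in both strains, which held for 5.27% of all genes. In WT alone the 45 and 135 µg/L libraries did not overlap in this direction for 38 members, against 23.9% of all genes, and in sir2Δ for 40 members, against 18.6%.

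**Figure D1:**
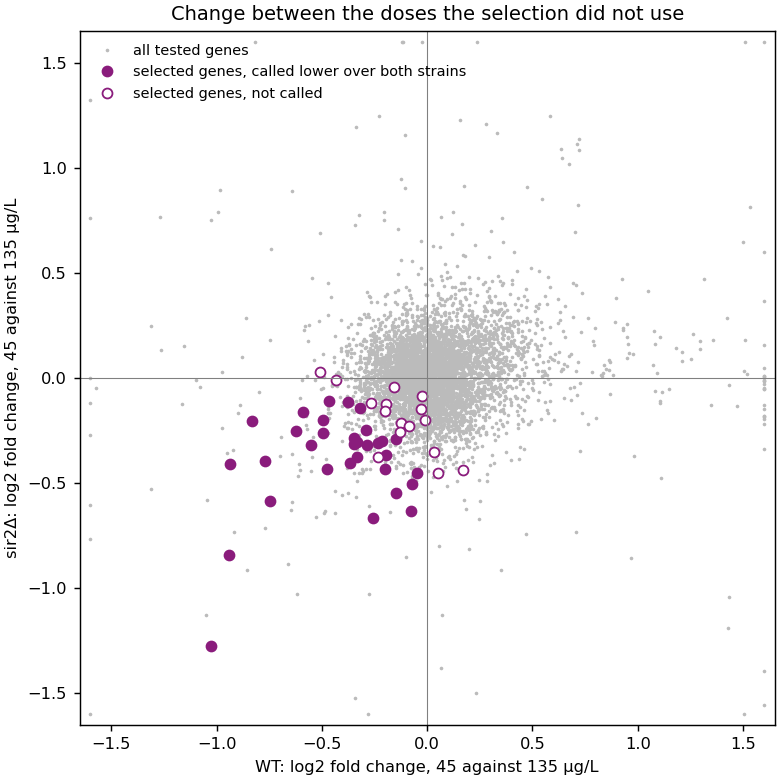
Log2 fold change from 135 to 45 µg/L nicotinic acid in WT (horizontal axis) and in sir2Δ (vertical axis), 1 point per gene; grey points are all genes tested, filled purple points the 32 selected genes called lower over both strains and open purple points the 16 not called. Genes beyond the axis range are drawn at its edge, and the 48 selected genes lie mostly in the lower left, where both strains have less RNA at 45 µg/L.

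The strains taken singly gave fewer calls. Fitted changes lay below 0 for 45 of 48 members in WT, with the highest at 0.17, and for 47 in sir2Δ, with the highest at 0.03. Over all genes 47.4% and 46.4% lay below 0. In WT 21 members were called lower and 0 higher, against 2.87% and 6.03% of all genes, and 31 were lower and 0 higher at an unadjusted p under 0.05. In sir2Δ 14 were called lower and 0 higher, against 1.38% and 0.919% of all genes, and 32 were lower and 0 higher at an unadjusted p under 0.05. For the unadjusted counts of either strain no share over all genes was computed. KLLA0_A11110g, FBP1, MRX3 and GSF2 were called in each strain separately, 17 members in WT alone, 10 in sir2Δ alone and 17 in neither. Each of those 4 lost at least 1 of its within-strain calls without single libraries: without sir2Δ library 3 at 135 µg/L the sir2Δ adjusted p was 0.252 for KLLA0_A11110g, 0.198 for FBP1, 0.252 for MRX3 and 0.149 for GSF2, and without sir2Δ library 4 it was 0.0642, 0.107, 0.165 and 0.165. The WT calls of KLLA0_A11110g, MRX3 and GSF2 were also lost without WT library 3 or 4 at 135 µg/L, while that of FBP1 held. The within-strain counts depended on single libraries. In each fit named below, fewer calls were made over all genes too, so the lower counts are not particular to the members. Without WT library 3 or 4 at 135 µg/L or WT library 6 at 45 µg/L, the members' median change in WT was -0.31, -0.25 and -0.29. Without sir2Δ library 3 or 4 at 135 µg/L or sir2Δ library 5 at 45 µg/L, their median in sir2Δ was -0.30, -0.32 and -0.31. The WT count was 12 without WT library 3 at 135 µg/L, 9 without WT library 4 and 11 without WT library 6 at 45 µg/L. The sir2Δ count was 2 without sir2Δ library 3 at 135 µg/L, 3 without library 4, 9 without sir2Δ library 5 at 45 µg/L, and 8 without either WT library at 135 µg/L, which shares the estimate of the spread. The count over both strains ranged from 24 to 33 as each library was left out.

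How the fall divided over the doses is given as a description, since its ends were selected. The median log2 step from 400 to 135 µg/L was -0.09 in WT and -0.24 in sir2Δ, the step from 135 to 45 µg/L was -0.28 and -0.30, and the step from 45 to 15 µg/L was -0.18 and 0.0019. At 135 µg/L 34 of 48 members were lower than at 400 µg/L in WT, with values up to 0.34, and 42 in sir2Δ, with values up to 0.06. Over all genes 49.8% and 48.5% were lower. In WT 41 of 48 members were lower at 15 than at 45 µg/L, where 51.7% of all genes were, and in sir2Δ the number was 24, where 47.6% of all genes were. The whole span from 400 to 15 µg/L had a median of -0.55 in WT, with members from -2.34 to -0.34, and of -0.49 in sir2Δ, with members from -1.69 to -0.36.

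**Figure D2:**
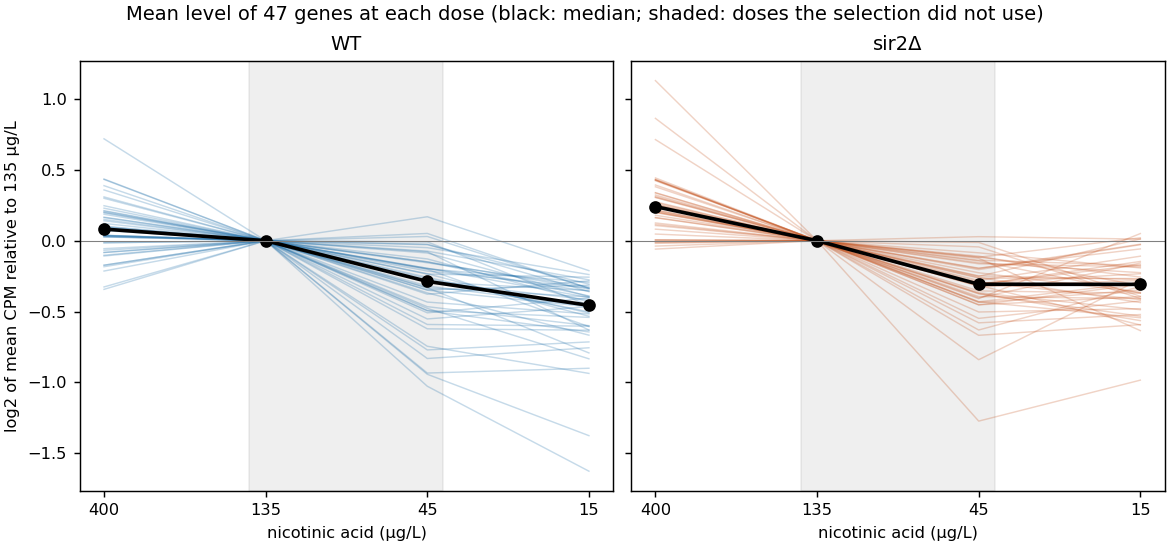
Log2 of the mean CPM of each member relative to its own level at 135 µg/L, plotted against nicotinic acid level in falling order with equal spacing, for WT on the left and sir2Δ on the right; each thin line is 1 of 47 genes (KLLA0_F13981g is left out for its few reads) and the black line is their median. The shaded doses did not enter the selection, and the median goes on falling from 45 to 15 µg/L in WT but is level there in sir2Δ.

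Members were sorted by role into small groups, which were not compared with each other by a test. Among the members of carbon metabolism, with a median log2 fold change of -0.30, 6 of 6 were called lower at 45 than at 135 µg/L. This stands beside 32 of 48 members and 2.85% of all genes. The number was 5 of 6 with upper-quartile size factors, with library 1 summed with 1R, or with the 45 and 135 µg/L groups fitted alone. GAL80 lost its call in each of these fits. FBP1 (KLLA0_E01211g) encodes fructose-1,6-bisphosphatase, the gluconeogenic enzyme that opposes phosphofructokinase. In WT it had 263 and 255 CPM at 400 µg/L, 263 and 260 at 135, 199 and 176 at 45, and 131 and 163 at 15. In sir2Δ its values were 431 and 432 CPM, then 345 and 339, then 253 and 254, then 264 and 293. The 45 µg/L libraries lay below all 135 µg/L libraries of their strain, and sir2Δ lay above WT at every dose with no overlap. FBP1 fell by 0.48 on the log2 scale in WT (SE 0.09, edgeR adjusted p = 0.00239) and by 0.43 in sir2Δ (SE 0.09, edgeR adjusted p = 0.0178). The call in WT held without any single library, while that in sir2Δ was lost without library 3 or 4 at 135 µg/L (edgeR adjusted p = 0.198 and 0.107).

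IDP3 (KLLA0_F12342g), for the peroxisomal NADP-dependent isocitrate dehydrogenase, had the largest strain difference of the 48 members when averaged over 45 and 135 µg/L. Its WT libraries ran from 284 and 303 CPM at 400 µg/L through 222 and 236 at 135 and 196 and 204 at 45 to 167 and 190 at 15. Its sir2Δ libraries had 591 and 583 CPM at 400 µg/L, 603 and 571 at 135, 451 and 459 at 45, and 404 and 434 at 15. The lowest sir2Δ library lay above the highest WT library. The change from 135 to 45 µg/L over both strains was -0.28 (SE 0.05, edgeR adjusted p = 0.00302).

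GLC3 (KLLA0_A11176g), the glycogen branching enzyme, was likewise higher in sir2Δ at every dose. WT had 246 and 239 CPM at 400 µg/L, 237 and 239 at 135, 177 and 168 at 45, and 153 and 160 at 15. The sir2Δ libraries had 406 and 396 CPM, then 359 and 357, then 343 and 321, then 287 and 288. WT was level down to 135 µg/L and dropped at 45, while sir2Δ went down in smaller steps, and the 2 strains' changes are compared further on.

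MIG1 (KLLA0_E11023g), the repressor that acts on glucose-repressed genes also in K. lactis, was 1 of the members lower in sir2Δ. It had 141 and 154 CPM at 135 µg/L and 135 and 122 at 45 in WT, and 137 and 134 falling to 98.3 and 102 in sir2Δ. Its change over both strains was -0.32 (SE 0.06, edgeR adjusted p = 0.00222). GAL80 (KLLA0_A08162g), whose product holds the galactose activator inactive in K. lactis as in S. cerevisiae, went from 38.6 and 38.0 to 30.5 and 30.9 CPM in WT and from 41.9 and 40.5 to 34.9 and 39.7 in sir2Δ, with a change over both strains of -0.23 (SE 0.07, edgeR adjusted p = 0.0366). XYL2, for xylitol dehydrogenase, changed by -0.35 (SE 0.07, edgeR adjusted p = 0.00387). In WT it was higher at 135 than at 400 µg/L, with 124 and 128 CPM at 400, 162 and 158 at 135, and 121 and 133 at 45. In sir2Δ it had 161 and 156 CPM, then 146 and 137, then 95 and 123.

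Galactose genes that the rule dropped went the same way. The lists were matched by symbol, so genes that carry only an identifier do not enter them. Here and below, list counts over both strains stand beside 2.85% of all genes called lower and 5.55% called higher. Of the 13 symbols of a galactose and lactose list 5 were matched, none of them a lactose gene, and 4 were called lower from 135 to 45 µg/L over both strains: GAL80, GAL1 with a log2 fold change of -0.54, GAL7 with -0.40 and GAL10 with -0.74. GAL4, their activator, had -0.07 and was not called. In the list of gluconeogenesis, glyoxylate, acetate and carnitine genes 5 of 24 were called lower and 0 higher, with a median of -0.19. They were FBP1, PCK1 for phosphoenolpyruvate carboxykinase at -0.45, RDS2, a regulator of gluconeogenesis, at -0.50, SFC1 for the mitochondrial succinate-fumarate carrier at -0.38 and GUT2 for glycerol-3-phosphate dehydrogenase at -0.46. From 400 to 15 µg/L, as a description, this list's median was -0.18 in WT and 0.07 in sir2Δ. PCK1, at -0.47 and -1.12, and GUT2, at -0.49 and -0.81, fell in both strains, as did FBP1. RDS2, at -1.11 and 0.15, and SFC1, at -0.73 and 0.01, did not fall in sir2Δ. Among 21 peroxisome and fatty acid oxidation genes 4 were lower and 0 higher, with a median of -0.14, and among 8 genes of sugar transport and glucose signalling MIG1 and RGT1, at -0.32, were lower and 0 higher. From 400 to 15 µg/L the peroxisome list had medians of -0.04 in WT and 0.0087 in sir2Δ, and the sugar list -0.14 and -0.04. The list of general stress genes that holds GLC3 was not one-sided, with 2 lower and 3 higher of 27 and a median of 0.02.

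The members of membrane lipid synthesis were called lower in 4 of 6 cases, with a median of -0.25. With library 1 summed with 1R, or with the 45 and 135 µg/L groups fitted alone, 3 of 6 were, and ERG1 lost its call. ECT1 (KLLA0_C18139g), which makes CDP-ethanolamine for phosphatidylethanolamine, had 101 and 106 CPM at 400 µg/L in WT, 90.6 and 94.2 at 135, 59.2 and 60.9 at 45, and 51.5 and 67.8 at 15. In sir2Δ it had 165 and 144 CPM, then 88.9 and 99.0, then 71.4 and 86.5, then 87.5 and 102. The WT libraries dropped between 135 and 45 µg/L with no overlap, by 0.62 on the log2 scale (SE 0.12, edgeR adjusted p = 0.00274). The sir2Δ libraries were lower at 135 than at 400 µg/L, and at 135 µg/L lay near WT, whose larger drop came after that dose. Their change from 135 to 45 µg/L, -0.25, was not called (SE 0.12, edgeR adjusted p = 0.324). At 15 µg/L they lay above the WT libraries. GPI2, for a subunit of the enzyme that begins GPI anchor synthesis, changed by -0.44 over both strains (SE 0.08, edgeR adjusted p = 0.00114), and CST26, for an acyltransferase, by -0.27 (SE 0.06, edgeR adjusted p = 0.00417).

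**Figure D3:**
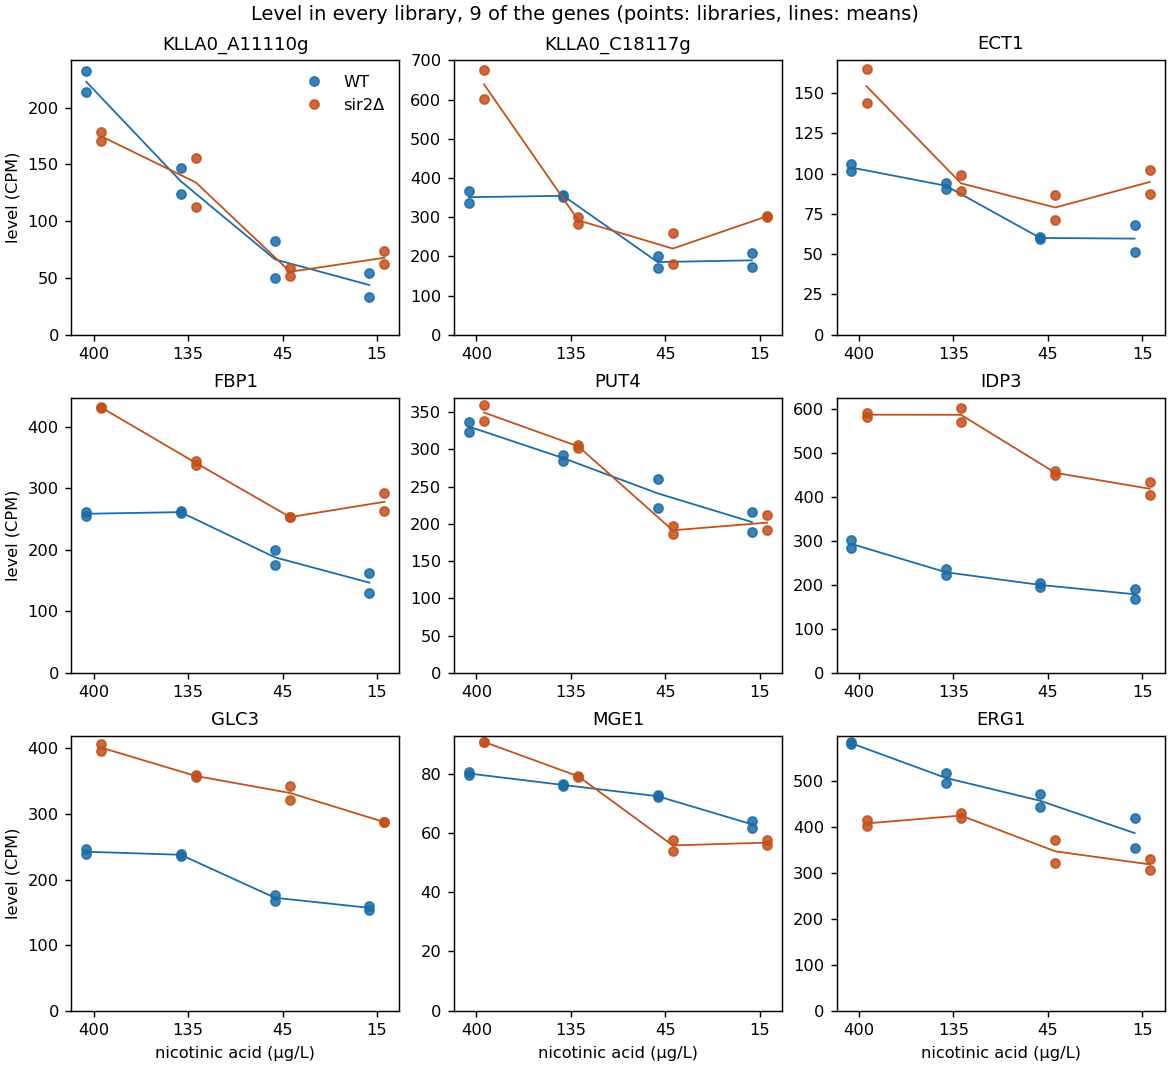
CPM of 9 members (vertical axes from 0, scale set per gene) against nicotinic acid level in falling order with equal spacing; blue points are WT libraries, orange points sir2Δ libraries and lines join group means. IDP3, GLC3 and FBP1 lie higher in sir2Δ at every dose and ERG1 lower. KLLA0_C18117g and ECT1 drop most between 400 and 135 µg/L in sir2Δ and between 135 and 45 µg/L in WT.

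The 3 sterol members encode enzymes of oxygen-requiring steps. ERG1 (KLLA0_F15224g), squalene epoxidase, had 580 and 583 CPM at 400 µg/L, 495 and 518 at 135, 442 and 471 at 45, and 420 and 353 at 15 in WT. In sir2Δ it had 414 and 401 CPM, then 430 and 419, then 372 and 321, then 331 and 306. Its change from 135 to 45 µg/L over both strains was -0.22 (SE 0.06, edgeR adjusted p = 0.0355). ERG3, the C-5 sterol desaturase, at -0.16, and ERG25, the C-4 methyl sterol oxidase, at -0.10, were not called (SE 0.08 and 0.06, edgeR adjusted p = 0.239 and 0.358). Across the whole list of 29 sterol and oxygen response genes ERG1 and SUT1, at -0.17, were called lower and 0 higher, with a median of -0.05. The phospholipid and fatty acid list had 3 lower and 1 higher of 31, with a median of -0.05.

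Mitochondrial members were called lower in 7 of 8 cases, with a median of -0.30, and in 4 of 8 without any 1 of the 4 libraries at 135 µg/L, without WT library 5 at 45 µg/L or without sir2Δ library 5 at 45 µg/L. MGE1 (KLLA0_D07326g) encodes the nucleotide exchange factor of the mitochondrial Hsp70 that pulls in imported proteins. It had 80.6 and 79.5 CPM at 400 µg/L in WT, 76.0 and 76.4 at 135, 72.7 and 72.1 at 45, and 64.2 and 61.6 at 15. In sir2Δ it had 90.9 and 90.6 CPM, then 79.4 and 78.9, then 54.0 and 57.6, then 55.9 and 57.5. The sir2Δ libraries passed from above WT at 400 µg/L to below it at 45 µg/L, with no overlap at either dose.

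TOM22 (KLLA0_F24376g), a receptor of the outer membrane import pore, had 98.1 and 96.9 CPM at 135 µg/L and 87.9 and 101 at 45 in WT, where the libraries overlapped, and 124 and 124 falling to 84.3 and 96.9 in sir2Δ. Its change over both strains was -0.25 (SE 0.06, edgeR adjusted p = 0.0203). MGR2, a small subunit of the inner membrane import complex, changed by -0.36 (SE 0.10, edgeR adjusted p = 0.0393), MDM34, a subunit of the tether between endoplasmic reticulum and mitochondria, by -0.25 (SE 0.05, edgeR adjusted p = 0.00546), and MDM36, which acts in mitochondrial distribution, by -0.32 (SE 0.07, edgeR adjusted p = 0.00628). The values for MRX3 and MRX11, mitochondrial proteins, were -0.39 and -0.32 (SE 0.07 and 0.09, edgeR adjusted p = 0.00141 and 0.0341). MRP4, a protein of the small mitochondrial ribosomal subunit, had -0.16 and was not called (SE 0.06, edgeR adjusted p = 0.0933). In the list of 57 mitochondrial translation and import genes 5 were lower and 0 higher over both strains, with a median of -0.07, namely MGE1, TOM22, TOM20 at -0.23, TOM40 at -0.22 and PHB2, a prohibitin of the inner membrane, at -0.17. In WT alone 0 of the list were called lower and 0 higher, with a median of 0.0052. In sir2Δ alone 3 were called lower and 0 higher, with a median of -0.16.

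PUT4 (KLLA0_F23419g), the proline permease, was called lower over both strains at -0.46 (SE 0.06, edgeR adjusted p = 7.04e-05). WT had 324 and 337 CPM at 400 µg/L, 284 and 293 at 135, 261 and 221 at 45, and 190 and 215 at 15. The sir2Δ libraries had 360 and 339 CPM, then 302 and 306, then 197 and 186, then 192 and 212. The 45 µg/L libraries lay below the 135 µg/L libraries in both strains, with changes of -0.67 in sir2Δ (SE 0.09, edgeR adjusted p = 6.17e-04) and -0.26 in WT, which was not called (SE 0.09, edgeR adjusted p = 0.0701). The difference between these changes, -0.41, was not called (SE 0.12, edgeR adjusted p = 0.0758). GSF2, an endoplasmic reticulum protein needed for export of hexose transporters, changed by -0.30 over both strains (SE 0.05, edgeR adjusted p = 6.70e-04), and GRH1, a Golgi-associated protein of the secretory route, by -0.18 without a call (SE 0.06, edgeR adjusted p = 0.0662). The wider list of permeases and nitrogen use had 5 lower and 1 higher of 42, with a median of -0.01.

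The 7 members that act in the nucleus, on RNA or elsewhere did not pass the test over both strains, with a median of -0.19 and edgeR adjusted p-values from 0.0991 to 0.772; without WT library 6 at 45 µg/L 2 of them passed, and without sir2Δ library 5 or 6 at 45 µg/L 1 did. In the strains taken singly 2 of them, ADO1 for adenosine kinase and GIS2 for an RNA-binding zinc knuckle protein, did not fall in WT. Their WT means were 776 and 501 CPM at 135 µg/L and 792 and 519 CPM at 45. In sir2Δ both were called lower, at -0.35 and -0.45. Both calls were lost without either 135 µg/L library of either strain or sir2Δ library 5 at 45 µg/L, with adjusted p-values of up to 0.252 and 0.279. TFB6, linked to the general transcription factor TFIIH, was called lower in WT at -0.51 and had 0.03 in sir2Δ, and its WT call was lost without any 1 of the 4 WT libraries at 45 and 135 µg/L (edgeR adjusted p up to 0.264). The other 4 were CST9 and MER1, which act in meiosis, at -0.31 and -0.09, NAB3, which acts in transcription termination, at -0.19 and NAT5, a subunit of an N-terminal acetyltransferase, at -0.10.

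Of the 18 tested members without a symbol 13 were called lower, with a median of -0.35, and the largest changes of all were among them. KLLA0_A11110g had 213 and 232 CPM at 400 µg/L in WT, 124 and 146 at 135, 82.9 and 49.7 at 45, and 33.0 and 54.5 at 15. In sir2Δ it had 171 and 179 CPM, then 156 and 112, then 51.9 and 59.0, then 73.3 and 62.2. It was lower at 45 than at 135 µg/L in every library of both strains, by 1.15 on average on the log2 scale (SE 0.19, edgeR adjusted p = 0.00537), although its WT replicates differed widely at 45 and at 15 µg/L.

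KLLA0_C18117g, next to ECT1 on chromosome C in the reference gene order, had 336 and 367 CPM at 400 µg/L in WT, 352 and 357 at 135, 170 and 201 at 45, and 172 and 208 at 15. In sir2Δ it had 676 and 603 CPM, then 301 and 283, then 179 and 260, then 304 and 301. As in ECT1, the largest drop in WT came between 135 and 45 µg/L, at -0.93 (SE 0.14, edgeR adjusted p = 3.96e-04). In sir2Δ the larger step was between 400 and 135 µg/L, at -1.13 as a description. Whether reads can be shared between these neighbours is not known, since the handling of strand and overlaps is not given in the sources used here. They were the only members adjacent to each other; GSF2 with GAL80 and KLLA0_A11110g with GLC3 lay 3 genes apart on chromosome A.

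KLLA0_A04125g changed by -0.52 over both strains (SE 0.07, edgeR adjusted p = 5.05e-05). Its WT libraries had 284 and 277 CPM at 135 µg/L and 154 and 161 at 45, and its sir2Δ libraries 177 and 182, then 164 and 148. The values of KLLA0_F07348g were -0.67 (SE 0.12, edgeR adjusted p = 0.00222), of KLLA0_D03476g -0.58 (SE 0.09, edgeR adjusted p = 6.84e-04) and of KLLA0_E09021g -0.89 (SE 0.23, edgeR adjusted p = 0.0480). The called members KLLA0_C05412g, KLLA0_C11143g, KLLA0_A10439g, KLLA0_C16027g, KLLA0_F06138g, KLLA0_F17006g and KLLA0_D03630g had changes between -0.38 and -0.26. KLLA0_E01321g, KLLA0_F02860g, KLLA0_F13981g, KLLA0_E16259g and KLLA0_A03311g were not called, with values between -0.22 and -0.06.

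The calls over both strains were not equally firm. Of the 32, 23 were called under every alternative tried. Leaving out any of the 4 libraries at 135 µg/L ended the calls of GAL80, MGR2, ERG1, MRX11, TOM22 and KLLA0_E09021g, with adjusted p-values of up to 0.124, 0.138, 0.141, 0.130, 0.0785 and 0.142 in that order. Of the 45 µg/L libraries, WT library 5 also ended the calls of GAL80, MGR2, ERG1, MRX11 and TOM22, WT library 6 those of GAL80 and KLLA0_E09021g, sir2Δ library 5 those of GAL80, MGR2, MRX11, TOM22 and KLLA0_E09021g, and sir2Δ library 6 those of ERG1 and KLLA0_E09021g. KLLA0_F06138g lost its call without WT library 4 or sir2Δ library 3 at 135 µg/L (edgeR adjusted p = 0.0531 and 0.0669), KLLA0_D03630g without WT library 3 or sir2Δ library 4 (edgeR adjusted p = 0.0504 and 0.0559), and KLLA0_F17006g without WT library 4 (edgeR adjusted p = 0.05001). These 9 kept their direction under every alternative.

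Members differed in level between the strains in both directions. Averaged over 45 and 135 µg/L, 16 of 48 were called higher in sir2Δ than in WT and 11 lower, against 26.6% and 25.0% of all genes, so the members' shares of 33.3% and 22.9% were near the background. Their median difference was -0.04. As a description, at the doses used by the selection the members had medians of 0.24 (400 µg/L) and 0.29 (15 µg/L), with 16 and 14 of 48 members below 0, against medians of 0.01 and 0.0035 over all genes. KLLA0_F07348g had the highest strain difference at 400 µg/L, 2.05. IDP3 was higher by 1.27 on the log2 scale (SE 0.06, edgeR adjusted p = 1.31e-12), GLC3 by 0.77 (SE 0.05, edgeR adjusted p = 1.14e-10) and FBP1 by 0.41 (SE 0.06, edgeR adjusted p = 3.13e-05). Without a symbol, KLLA0_F07348g at 0.94, KLLA0_C11143g at 0.88, KLLA0_C05412g at 0.78 and KLLA0_D03476g at 0.53 were higher, as were MRX11 at 0.54 and MDM34 at 0.50. ERG1 differed by -0.33 (SE 0.06, edgeR adjusted p = 2.64e-04), MIG1 by -0.24 (SE 0.06, edgeR adjusted p = 0.00212) and KLLA0_A03311g, the member furthest below 0, by -0.37 (SE 0.08, edgeR adjusted p = 0.00108). The count of members lower was 7 without WT library 4 or without sir2Δ library 4 at 135 µg/L. The strain calls of 8 members were lost without single libraries. GPI2 lost its call without WT library 6 at 45 µg/L (edgeR adjusted p = 0.0575). Without sir2Δ library 4 at 135 µg/L the adjusted p was 0.170 for ECT1, 0.101 for XYL2, 0.177 for TFB6, 0.157 for ERG3, 0.0896 for CST26 and 0.0604 for KLLA0_A10439g. WT libraries 3 and 4 at 135 µg/L each ended the calls of ECT1, GAL80, XYL2, ERG3 and CST26, library 3 also that of TFB6 and library 4 that of KLLA0_A10439g, and GAL80 also lost its call without sir2Δ library 3 at 135 µg/L or library 6 at 45 µg/L (edgeR adjusted p = 0.0623 and 0.0922). Single 45 µg/L libraries ended the calls of ECT1, with adjusted p-values of up to 0.197, of XYL2, up to 0.144, of ERG3, up to 0.153, of CST26, up to 0.0757, of TFB6, at 0.0582, and of KLLA0_A10439g, at 0.0568.

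**Figure D4:**
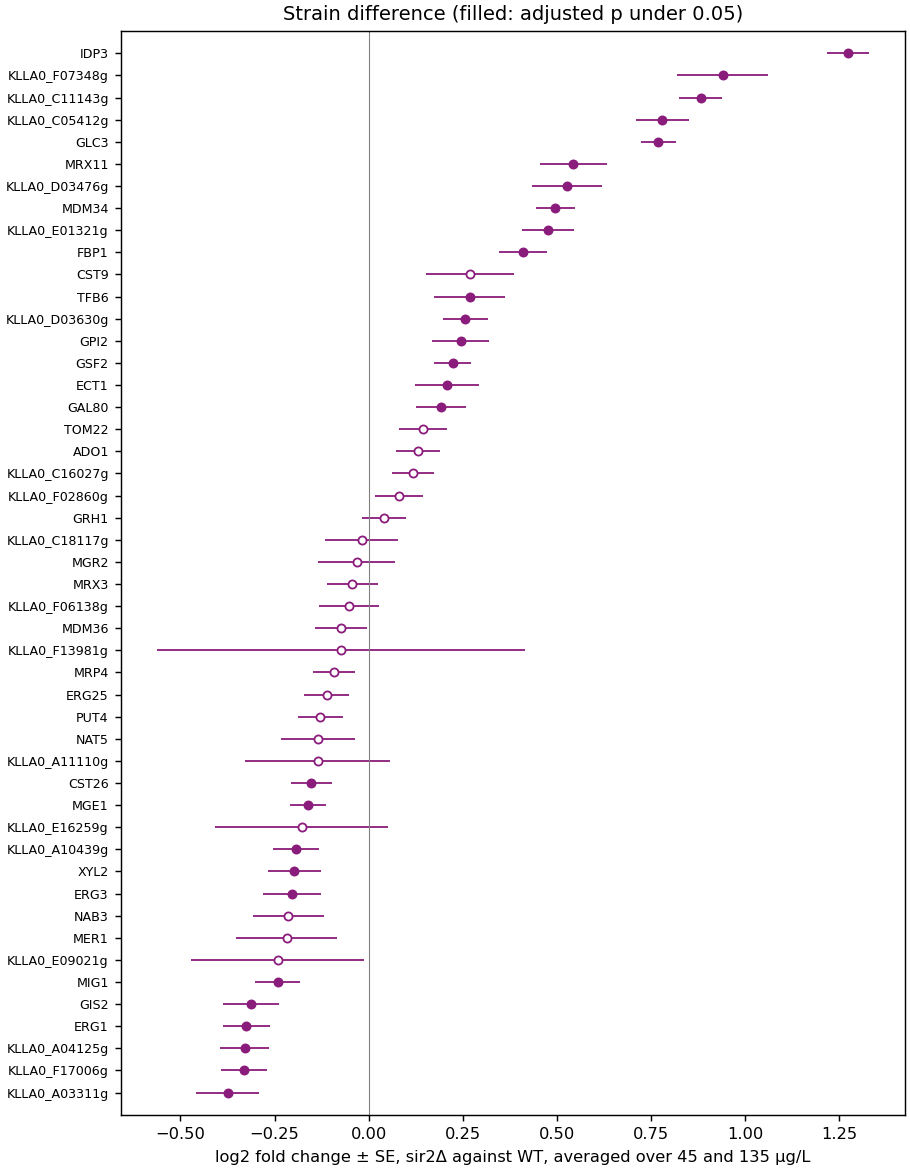
Log2 fold change of sir2Δ against WT averaged over 45 and 135 µg/L (horizontal axis, points with bars of 1 SE) for the 48 members tested, ordered by value; filled points passed an adjusted p of 0.05 and open points did not. The values run from -0.37 for KLLA0_A03311g to 1.27 for IDP3, with 16 called on the right and 11 on the left.

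For 3 of 48 members the change from 135 to 45 µg/L itself differed between strains, 2 higher and 1 lower in sir2Δ minus WT. These were 4.17% and 2.08% of the members, where 0.804% of all genes were called higher and 2.13% lower. The members' share called lower was thus near that of all genes. KLLA0_A04125g changed by -0.83 in WT and by -0.20 in sir2Δ, a difference of 0.63 (SE 0.13, edgeR adjusted p = 0.0114), and GLC3 by -0.47 and -0.11, a difference of 0.36 (SE 0.09, edgeR adjusted p = 0.0445). MGE1 went the other way, with -0.07 in WT and -0.50 in sir2Δ, a difference of -0.43 (SE 0.10, edgeR adjusted p = 0.0183). Each of these calls was lost when single libraries were left out: without WT library 3 or sir2Δ library 3 at 135 µg/L the adjusted p was 0.0642 and 0.0656 for KLLA0_A04125g, 0.143 and 0.138 for GLC3, and 0.0967 and 0.0831 for MGE1. Without WT library 4 or sir2Δ library 4 at 135 µg/L or sir2Δ library 5 at 45 µg/L it was 0.202, 0.139 and 0.0902 for GLC3 and 0.0910, 0.0734 and 0.0620 for MGE1, and without WT library 6 at 45 µg/L it was 0.151 for GLC3.

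The members' median coding length was 1066 bp, against 1227 bp over 5078 tested protein-coding genes, and their median level per coding length was 98.7 CPM per kb, against 43.5. The members' lower quartile of 51.2 CPM per kb lay above the median of all these genes. In each of 5 classes of coding length the members' median change from 135 to 45 µg/L lay between -0.33 and -0.27, while that of all genes lay between -0.01 and 0.02. Chromosomes A to F held 8, 4, 10, 8, 9 and 10 of the 49 members among 527, 655, 863, 878, 1115 and 1245 genes.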

How the data were processed

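Poly(A) RNA was read as paired ends of 150 bp, per the labels' protocols. The authors deposited a table of read counts for 5335 genes and a normalized signal for 5302 genes, which from its values equals the counts divided by 1 size factor per library. Per the submitters' processing notes, Bowtie2, featureCounts, SAMtools, cutadapt, DESeq2, FastQC and MultiQC were used, with no order named. Versions, strand setting, annotation and genome build were not given in the sources used here. All 5335 identifiers matched the reference table of assembly ASM251v1, used for names, coding lengths and gene order only.

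Members were chosen on the normalized signal. Deposited counts were fitted with edgeR 4.0.16 in R 4.3.3 (TMM factors, robust quasi-likelihood test, filterByExpr with a minimum count of 10, 8 group means, 16 libraries, 8 residual degrees of freedom); WT library 1 at 400 µg/L was left out. The filter removed 113 genes and left 5222, and p-values were adjusted by Benjamini-Hochberg over these. CPM values use the TMM factors. The script was tested on simulated data. DESeq2 1.42.0 was an alternative, beside other size factors, no filter, other uses of library 1, a fit of the 45 and 135 µg/L groups alone, a replicate block and leaving out each library. Library totals of 24663143 to 38246270 reads limit the precision of genes with few reads, and reads carry no molecular identifiers.

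The members and the gene lists were chosen with earlier results of these data known. Genes named in full follow a rule: the 12 members with the largest mean fall, up to 12 by adjusted p over both strains, up to 8 by strain difference, those with a called interaction, those in a gene list, neighbouring members, and the 3 genes on each side of the threshold. It named 29 members; the others are named to account for each member. The series text states independent biological replicates.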

Additional observations from a re-analysis of the deposited data

Results flagged for a closer look

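In 3 members the change from 135 to 45 µg/L differed between the strains by a test of that difference (edgeR's quasi-likelihood interaction term, 2 libraries a group). The difference, sir2Δ minus WT on the log2 scale, was 0.36 for GLC3, -0.43 for MGE1 and 0.63 for KLLA0_A04125g. In all 3 genes the 45 µg/L libraries lay below the 135 µg/L libraries in both strains, so this does not separate the strains. The same held for 23.9% of all genes in WT, 18.6% in sir2Δ and 5.27% in both. None of the 3 calls held under every alternative. In the lower and higher direction 2.08% and 4.17% of the members were called, against 2.13% and 0.804% of all genes, so the share lower was near that of all genes.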

How the results depend on the processing

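The number of genes the rule kept was 126 at a threshold of -0.25, 10 at -0.50, 94 with all 3 WT 400 µg/L libraries and 81 with libraries 1 and 1R averaged first, and 44 to 56 as each library was left out. The count of members lower over both strains was 26 to 35 under the other settings and 24 to 33 as each library was left out, with 0 higher throughout, also in each strain. Leaving out libraries gave 9 to 22 lower in WT, 2 to 17 in sir2Δ, 7 to 12 lower and 13 to 18 higher between strains, and 0 to 6 lower and 0 to 4 higher in the interaction. With library 1 summed with 1R the sir2Δ count was 8 and the interaction count higher was 1. With the 45 and 135 µg/L groups alone they were 3 and 1, and the interaction count lower was 0. DESeq2 size factors gave 1 higher and the DESeq2 test 6 lower in the interaction. Replicate numbers are shared between strains, but their deviations correlated at 0.198, -0.0342, 0.481 and 0.239 at 400, 135, 45 and 15 µg/L, not above 0.1 at each dose, and the labels do not say what a number marks, so the block is given as an alternative only. With a replicate block the interaction gave 7 lower and 8 higher among members, and 644 against 153 calls over all genes. Over all combinations of a single-gene result and a setting, 34 gained and 241 lost a call and 17 changed sign, all 17 uncalled and on leaving out a library. Changes over both strains then ranged from -0.35 to 0.0813 for KLLA0_F13981g, -0.40 to 0.0599 for KLLA0_E16259g, -0.18 to 0.0057 for MER1 and -0.26 to 0.0289 for NAT5. Strain differences ranged from -0.30 to 0.0718 for KLLA0_A11110g, -0.17 to 0.10 for KLLA0_C18117g, -0.32 to 0.10 for KLLA0_F13981g, -0.0036 to 0.0821 for GRH1, -0.37 to 0.0868 for KLLA0_E16259g, -0.13 to 0.0785 for MGR2 and -0.10 to 0.0126 for MRX3. The number of calls over all genes also varied with the setting. Causes of these shifts were not tested, beyond the fewer libraries in some fits. Few reads limit KLLA0_F13981g and KLLA0_C18711g.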
